A study of Xenopus laevis with 6 samples.

Results

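Cytosolic ribosomal proteins are the protein subunits of the ribosome that translates nuclear-encoded mRNA. Their genes were followed here in whole Xenopus laevis embryos at stage 23, an early tailbud stage. Members were the gene features named rpl or rps with a number, rplp0, rplp1, rplp2 or rpsa, before the suffix .L or .S, while kinases of the rps6k type were left out. This rule took 119 of the 44958 annotated features, and 117 of the 119 had at least 1 read in some library. Of these 119, 48 encode proteins of the small subunit (40S), 66 encode proteins of the large subunit (60S), and 5 encode the acidic stalk of the large subunit. X. laevis is allotetraploid, and .L and .S mark the homeologs on the long and the short chromosome of a pair. The 119 features carried 62 gene names. They do not cover every ribosomal protein, since no feature was named, for example, rpl11, rpl27, rpl31, rps14, rps27 or rps28. Both homeologs were listed for 57 names, and rps10.L, rps24.L, rplp1.L, rpl10a.S and rpl35a.S were listed as single copies.

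The study injected 40 ng of a Morpholino (MO), a synthetic antisense oligonucleotide, into the animal hemisphere of embryos at the one-cell stage. One group received control MO, and the other received neil2 MO, which was designed to block translation of neil2, the mRNA of a DNA glycosylase that removes oxidised bases. Each group had 3 libraries of polyadenylated RNA, each made from 6 pooled embryos, and no genotype, strain or further agent was named for either group. Nothing in the labels says that the 3 pools of a group came from separate clutches, so p-values measure the spread between these pools.

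A ribosome is built in the nucleolus from ribosomal RNA and, for most proteins, a single copy of each, so the proteins are needed in nearly equal amounts. In vertebrates their mRNAs begin with a terminal oligopyrimidine tract (TOP), through which translation of the whole set is switched with growth signals. Frog eggs carry a large maternal store of ribosomes, and embryos make new ribosomal protein mRNA after the blastula stage and take it up into polysomes later in development. Shortage of single proteins impairs ribosome assembly, and in mammals free Rpl5 and Rpl11, held with the 5S rRNA, bind the ubiquitin ligase Mdm2.

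The 6 libraries held 11534725 to 24034094 counted reads and detected 30822 to 32968 features. The homeolog neil2.L had 3, 4 and 3 counts in control MO and 5, 4 and 15 in neil2 MO (log2 fold change 0.84 ± 1.02, SE, no adjusted p), and a translation-blocking MO need not change the mRNA. Markers of the tissues of a tailbud embryo (neural tissue, neural crest, somite, epidermis, notochord, endoderm, blood, heart and glands) numbered 41 features. Of the 39 with an adjusted p, 27 were below 0 and 12 above 0, with a median log2 fold change of -0.13. None was called in DESeq2 (adjusted p below 0.1 and a log2 fold change past 0.5 in size), beside 2.24% of all features tested. An unadjusted p under 0.05 was seen for 4, all lower in neil2 MO (sox2.S, des.1.L, des.1.S and tnnc2.S), where 4.68% of all features were lower at that p. The 41 markers together held 19855 to 22499 CPM (counts per 1000000 counted reads) in control MO and 20583 to 24548 CPM in neil2 MO, and the groups overlapped. Most of this sum came from the epidermal krt5.7.S, krt5.7.L and itln1.L (means of 8148, 5250 and 2116 CPM in control MO). Its overlap therefore says little about the other tissues. Taken singly in CPM, 11 of the 39 markers lay lower in neil2 MO without overlap and 0 higher. Over all features tested these shares were 10.3% and 6.11%. With the replicate number as a block, a DESeq2 adjusted p below 0.1 was seen for des.1.L, des.1.S, tnnc2.L, tnnc2.S, twist1.S, sox2.S and tubb2b.S. All of these were lower, none was called, and 8.61% of all features had such an adjusted p. The muscle intermediate filament gene des.1.L went from 751 ± 37.6 to 513 ± 58.7 CPM (SD, n = 3). Its DESeq2 log2 fold change was -0.496 (adjusted p = 0.0600), just short of the 0.5 asked for, and it was called lowered with size factors from total counts (-0.55, adjusted p = 0.0266) and in edgeR with the replicate block (-0.51, adjusted p = 0.00315). The other somite and muscle markers were split. Log2 fold changes were above 0 for myod1.L (0.040) and myod1.S (0.16). They were below 0 for actc1.L (-0.10), actc1.S (-0.23), des.1.S (-0.31), tnnc2.L (-0.45) and tnnc2.S (-0.40). Of the blood markers both gata1 homeologs stayed below 1 CPM on average. The part of these tissue differences in the ribosomal protein values was not tested. In whole embryos, fewer cells of a type and less RNA per cell cannot be told apart.

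The share of reads held by the members differed between groups by less than the spread of the pools. The shares and the ratio below cover the members only, not every ribosomal protein. Members held 3.62%, 2.92% and 2.82% of all counted reads in control MO replicates 1, 2 and 3. They held 3.40%, 3.18% and 2.85% in neil2 MO replicates 1, 2 and 3. The means were 3.12% ± 0.435 and 3.14% ± 0.275 (SD, n = 3), and the groups overlapped. Replicate 1 was the highest library and replicate 3 the lowest in both groups. The 40S members held 1.33% ± 0.193 in control MO and 1.35% ± 0.120 in neil2 MO. The 60S members held 1.69% ± 0.223 and 1.69% ± 0.152. The stalk members held 0.109% ± 0.0187 and 0.0985% ± 0.00477. The ratio of 40S to 60S reads was 0.787 ± 0.0116 in control MO and 0.802 ± 0.0148 in neil2 MO, again with overlapping libraries. Between same-numbered libraries this ratio was higher in neil2 MO in 3 of 3 comparisons (0.799 and 0.810, 0.776 and 0.785, 0.786 and 0.811), and the stalk share was lower in 3 of 3 (0.131% and 0.103%, 0.1003% and 0.0989%, 0.0966% and 0.0936%). These are descriptions, with no test.

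**Figure D1:**
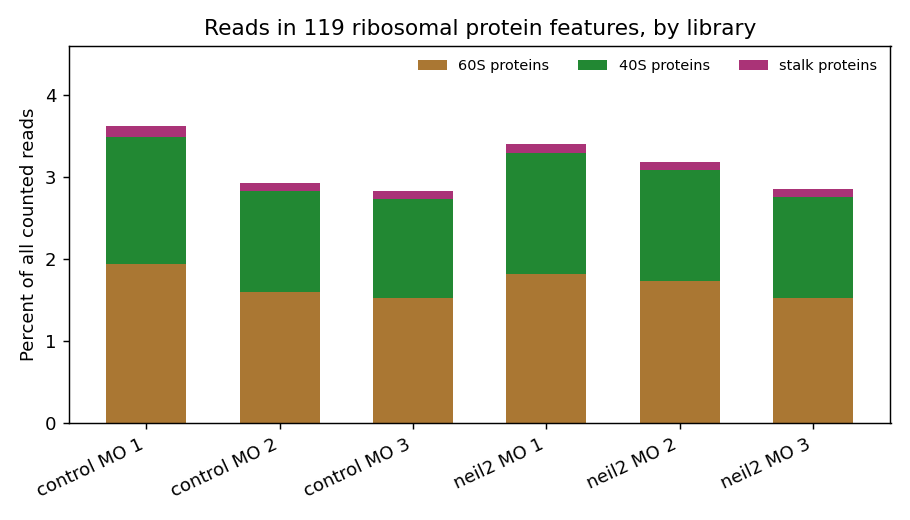
Share of counted reads (%, y axis) in 40S, 60S and stalk features, stacked for each of the 6 libraries (x axis, by group and replicate). The totals lie between 2.82% and 3.62%, and replicate 1 is highest and replicate 3 lowest in either group.

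The members moved together from library to library. For each member with an adjusted p (116 features), the deviation of a library was taken on the log2 scale of normalized counts (counts divided by DESeq2 size factors) from that member's mean over all 6 libraries. The median deviation was 0.16, -0.13 and -0.16 in control MO replicates 1 to 3, and 0.16, 0.12 and -0.13 in neil2 MO replicates 1 to 3. Of the 116 members, 110, 16 and 10 lay above their own mean in the 3 control MO libraries, against 108, 102 and 14 in the 3 neil2 MO libraries. The libraries numbered 1 were therefore both high, those numbered 3 were both low, and those numbered 2 fell on opposite sides. Within same-numbered libraries, the median difference of neil2 MO over control MO was 0.0060 for replicate 1 (61 of 116 members higher), 0.25 for replicate 2 (107 of 116) and 0.017 for replicate 3 (67 of 116). Of the 116 members, 41 were higher in neil2 MO in all 3 comparisons, 7 were lower in all 3 and 68 were mixed. The 7 were rpl10a.S, rps4x.L, rplp0.S, rpl3.S, rps13.L, rpl35a.S and rpl18.S, named after their values were seen. The matching shares over all features were not computed, so these counts have no background beside them.

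**Figure D2:**
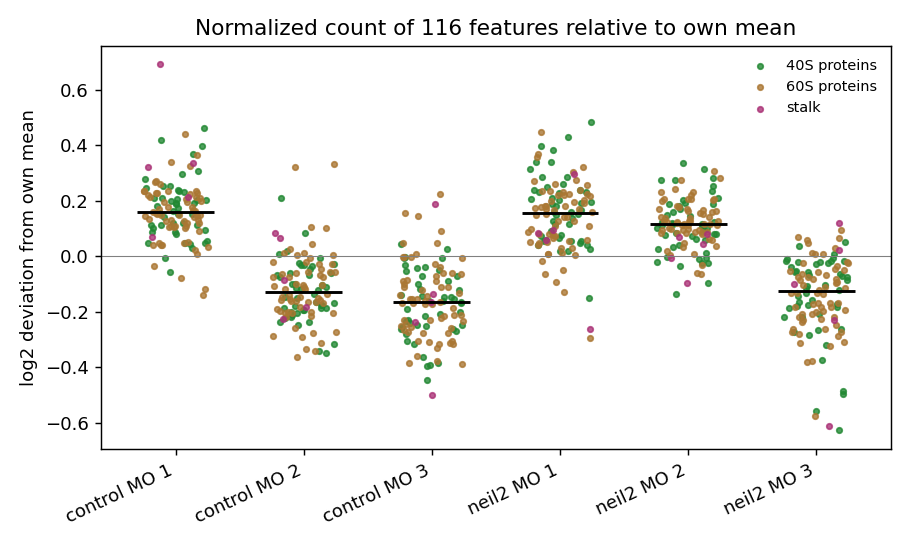
Deviation of each ribosomal protein feature from its own mean over 6 libraries (log2 of normalized counts, y axis) in each library (x axis), with the median of the 116 features. Medians range from -0.16 to 0.16, and the second pair of libraries is the one in which control MO and neil2 MO lie on different sides of 0.

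In the main fit, with group as the only term, no member was called raised or lowered in neil2 MO. With the replicate number as a block, rpl10a.S was called lowered, as given below. Of 116 members with an adjusted p, 0 were raised and 0 lowered, while 1.15% of all 24016 features tested were raised and 1.09% were lowered (2.24% in either direction). At an unadjusted p under 0.05, DESeq2 had 1 member (rpl10a.S) against 9.68% of all features. At that p edgeR had 2 (rpl10a.S and rps4x.L), and its share over all features was not computed. In edgeR too, 0 members were raised and 0 lowered, beside 0.298% and 0.294% of all features. The median log2 fold change of the members was 0.092, and 94 were above and 22 below 0, against a median of 0.010 over all features tested. With size factors taken from total counts, as in CPM, the median of the members was 0.035 and that of all features was -0.044. Leaving out control MO replicate 1 gave a median of 0.21, and leaving out control MO replicate 3 gave 0.025. The fold changes of the members ran from -0.56 to 0.27, and 113 of 116 were under 0.25 in size, the other 3 being rpl10a.S, rps4x.L and rpl29.S. The standard errors were 0.142 to 0.289, with a median of 0.180. The 95% interval of the fold change lay within 0.5 on either side of 0 for 78 of the 116 members, and reached past it for the other 38. With the replicate number as a block, the median SE was 0.116, and 112 intervals lay within 0.5 while 4 reached past it.

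**Figure D3:**
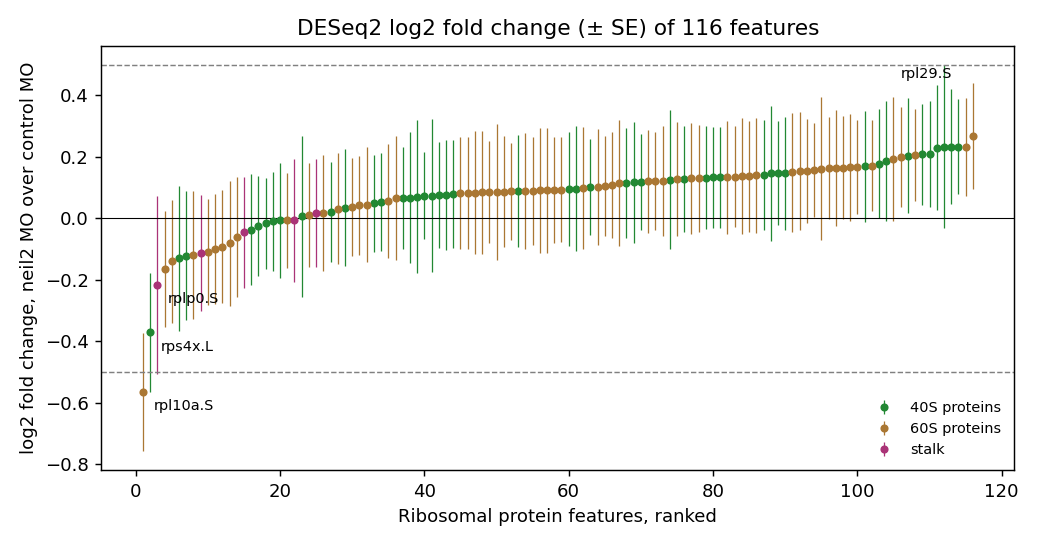
DESeq2 log2 fold change of neil2 MO over control MO (y axis; bars, ± SE) for the 116 ribosomal protein features with an adjusted p, ranked on the x axis and coloured by subunit; dashed lines mark 0.5 either way. The features run from -0.56 (rpl10a.S) to 0.27 (rpl29.S), and rpl10a.S is the one point beyond a dashed line.

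Few members had groups that did not overlap. Normalized counts of all 3 neil2 MO libraries lay above all 3 control MO libraries for 4 of 116 members (among them rpl13.S and rpl4.S, named after their values were seen), against 8.26% of all features tested. They lay below for 1 member, rpl10a.S, against 7.95%.

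Rpl10a forms the L1 stalk, the mobile arm of the large subunit beside the site from which spent tRNA leaves. Its gene was listed as rpl10a.S alone. The CPM of rpl10a.S were 839, 745 and 644 in control MO and 481, 566 and 399 in neil2 MO. All neil2 MO libraries lay below all control MO libraries, the mean going from 743 ± 97.1 to 482 ± 83.7 CPM (SD, n = 3). In CPM such a separation downwards was seen for 10.3% of all features tested. The log2 fold change was -0.56 ± 0.19 (SE; DESeq2 adjusted p = 0.127), with a 95% interval of -0.94 to -0.19. The edgeR adjusted p was 0.270. With the replicate number as a block, rpl10a.S was called lowered (log2 fold change -0.58, DESeq2 adjusted p = 7.76e-05; edgeR adjusted p = 0.00198), the one member called, where 2.76% of all features were lowered in DESeq2 and 5.27% in edgeR. No member was raised in these fits, beside 3.17% of all features in DESeq2 and 4.11% in edgeR. With size factors from total counts it was lowered as well (DESeq2 adjusted p = 0.0432), where 1.51% of all features were. It was also called with DESeq2 when control MO replicate 3 (adjusted p = 0.0734) or neil2 MO replicate 2 (adjusted p = 0.0224) was left out, and leaving out each of the 6 libraries in turn gave log2 fold changes between -0.72 and -0.43.

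The share of all ribosomal protein reads, here those of the members, needs no scaling between libraries. On it, rpl10a.S made up 2.32%, 2.55% and 2.28% in control MO. It made up 1.42%, 1.78% and 1.40% in neil2 MO. The groups did not overlap on this measure either. On it, 5 of 116 members were lower and 5 higher in neil2 MO without overlap, so such separation was not particular to rpl10a.S. The measure exists for members only and has no share over all features beside it. The paired log2 differences in normalized counts were -0.74, -0.32 and -0.67 for replicates 1, 2 and 3, so the replicate with the smallest difference was the one in which neil2 MO exceeded control MO for most other members.

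**Figure D4:**
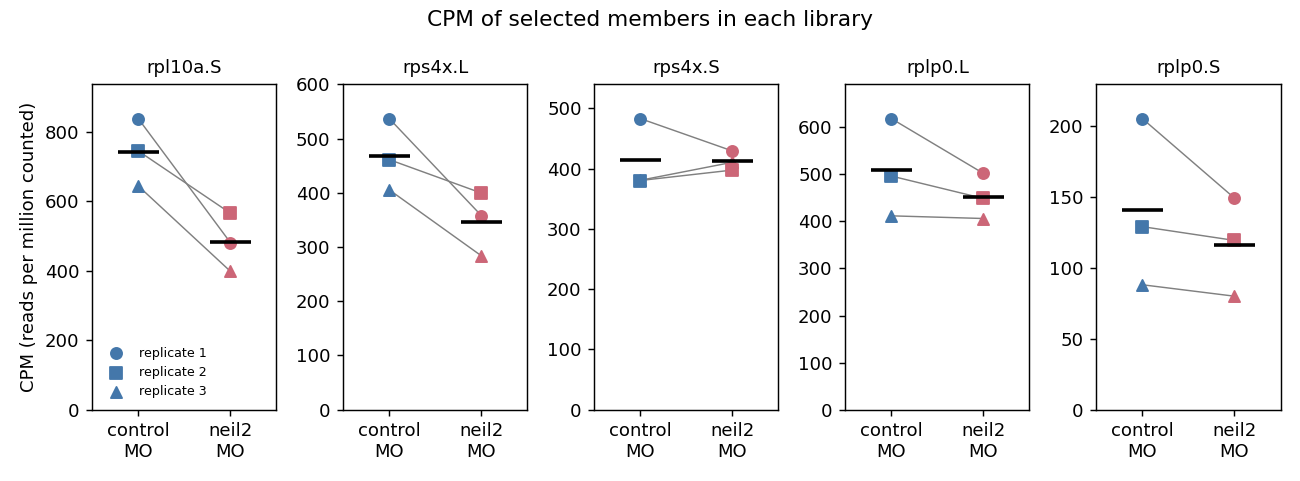
CPM (counts per 1000000 counted reads, y axis from 0) of rpl10a.S, rps4x.L, rps4x.S, rplp0.L and rplp0.S in each library, with lines joining libraries of the same replicate number and horizontal bars at the group means (n = 3). The groups do not overlap for rpl10a.S and rps4x.L, and they overlap for the other features shown.

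The other 60S members stayed closer to 0. Rpl3 and Rpl4 lie deep in the large subunit, and Rpl3 reaches towards the centre where peptide bonds form. The CPM of rpl3.L were 1525, 1369 and 1180 in control MO and 1298, 1324 and 1032 in neil2 MO (log2 fold change -0.10 ± 0.18). Those of rpl3.S were 433, 478 and 338 in control MO and 384, 373 and 316 in neil2 MO (log2 fold change -0.17 ± 0.19). Both rpl3 homeologs overlapped between groups in CPM. As a share of all ribosomal protein reads they did not, with rpl3.L at 4.36% ± 0.281 in control MO and 3.87% ± 0.271 in neil2 MO, and rpl3.S at 1.34% ± 0.253 and 1.14% ± 0.0311. Both were among the 5 members lower without overlap on this measure, where 5 others were higher, and this was not tested. The CPM of rpl4.S were 487, 437 and 380 in control MO and 513, 490.5 and 471.5 in neil2 MO (log2 fold change 0.23 ± 0.16, DESeq2 adjusted p = 0.756). Its partner rpl4.L went from 761 ± 103 to 804 ± 64.6 CPM. The most positive value among members was that of rpl29.S, with CPM of 153, 130 and 171 in control MO against 165, 190 and 170 in neil2 MO (log2 fold change 0.27 ± 0.17, DESeq2 adjusted p = 0.723), and these libraries overlapped. At the negative end, rpl36a.S had a log2 fold change of -0.14 ± 0.20 and the single copy rpl35a.S had -0.12 ± 0.21. Over the 64 members of the 60S subunit with an adjusted p, the median log2 fold change was 0.095, with 54 above 0 and 10 below.

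Among the 40S members, rps4x.L stood lowest. Rps4x is a core protein of the small subunit body. The CPM of rps4x.L were 537, 461 and 405 in control MO and 358, 399.5 and 284 in neil2 MO. The groups did not overlap in CPM (468 ± 66.0 against 347 ± 58.7), and they overlapped in normalized counts. The log2 fold change was -0.37 ± 0.19 (DESeq2 adjusted p = 0.538). With the replicate block it was -0.38 (adjusted p = 0.0261), below the effect size asked for, and 8.61% of all features had an adjusted p below 0.1 in that fit. Besides rps4x.L, rpl10a.S was the single member that passed it. The homeolog rps4x.S had CPM of 483, 380 and 381 in control MO and 429, 398 and 411 in neil2 MO (log2 fold change 0.048 ± 0.16), with overlapping libraries. Of all ribosomal protein reads, rps4x.L made up 1.48%, 1.58% and 1.44% in control MO and 1.05%, 1.25% and 0.995% in neil2 MO.

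At the positive end of the 40S members were, among others, rps21.L (0.23), rps26.L (0.23) and rps13.S (0.21), all in log2 fold change and none called. Rps26 lines the channel through which mRNA leaves the small subunit. The CPM of rps26.L went from 136 ± 34.0 to 153.5 ± 20.9, a difference smaller than the SD of either group. Its paired log2 differences were 0.079, 0.35 and 0.32 for replicates 1, 2 and 3 (DESeq2 with the replicate block, adjusted p = 0.247). At the negative end were rps15.L (-0.13) and rps13.L (-0.12). Rpsa, the small subunit protein also described as a laminin receptor, gave -0.010 for rpsa.L (361 ± 54.2 to 345 ± 11.9 CPM) and -0.017 for rpsa.S (673 ± 43.1 to 641.5 ± 66.0 CPM). The 47 members of the 40S subunit with an adjusted p had a median log2 fold change of 0.096, with 39 above 0 and 8 below.

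The stalk carries the acidic proteins Rplp1 and Rplp2 on Rplp0 and calls elongation factors to the ribosome. The CPM of rplp0.L were 619, 497 and 412 in control MO and 502, 449 and 406 in neil2 MO. Those of rplp0.S were 205, 129 and 88.0 in control MO and 149, 119 and 79.9 in neil2 MO. For both homeologs the library numbered 1 was highest and that numbered 3 lowest in either group, and the range within a group was larger than the difference between the group means. The log2 fold changes were -0.11 ± 0.19 for rplp0.L and -0.22 ± 0.29 for rplp0.S, the largest SE among the members. The single copy rplp1.L (-0.046), rplp2.L (-0.0069) and rplp2.S (0.017) were close to 0. The 5 stalk features had a median of -0.046, with 1 above 0 and 4 below.

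Members known for other roles gave no calls. Rpl5 joins the 5S rRNA to the large subunit, and the log2 fold changes were 0.088 ± 0.16 for rpl5.L (654 ± 75.5 to 668 ± 38.5 CPM) and 0.084 ± 0.20 for rpl5.S (226 ± 37.3 to 231 ± 43.9 CPM). A feature named rpl11 was not analysed here. Members whose mammalian proteins bind Mdm2 (both homeologs of rpl5, rpl23, rpl26, rps3, rps7, rps25, rps26 and rps27a) numbered 16 features. Features named rps14 or rps27 were not among them. Of these 16, 0 were raised and 0 lowered, beside 1.15% and 1.09% of all features tested. At such shares a list this short would hold few calls or none. The median log2 fold change of the 16 was 0.11. Members whose human genes are mutated in Diamond-Blackfan anaemia, a failure of red cell formation, numbered 25 features, of which 24 had counts. Features named rpl11, rpl27, rpl31, rps27 or rps28 were not among them. Of these 24, 0 were raised and 0 lowered, beside the same shares of all features, with a median of 0.11. One of them, rps19.S, went from 392 ± 42.7 to 416 ± 69.4 CPM.

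Genes outside the set that share its regulation or its particle were also not called in the main fit. A list of TOP-type genes, mostly translation factors, gave 23 features. They were homeologs of eef1b2, eef1d, eef1g, eif3e, eif3f, eif3h, eif4b and pabpc1, and of tpt1, naca, btf3 and hnrnpa1. The list also named eef1a1, eef2 and npm1, for which no feature of that name was found, so the main elongation factors are missing. Of the 23 features, 0 were raised and 0 lowered, beside 1.15% and 1.09% of all features tested. Their log2 fold changes ran from -0.30 to 0.66 with a median of 0.064. The highest was tpt1.S, at 4.96 ± 2.01 CPM in control MO and 7.47 ± 3.21 CPM in neil2 MO, with overlapping libraries. In edgeR with the replicate block tpt1.S was called raised (log2 fold change 0.61, adjusted p = 0.0484), where 4.11% of all features were. It was not called in DESeq2 without the block (adjusted p = 0.611) or with it (adjusted p = 0.166). The translationally controlled tumour protein gene tpt1.L went from 2233 ± 128 to 2593 ± 185 CPM without overlap (log2 fold change 0.27, DESeq2 adjusted p = 0.568). The groups were likewise separate for pabpc1.S, the poly(A)-binding protein, at 2388 ± 143 and 2653 ± 66.2 CPM (log2 fold change 0.21, DESeq2 adjusted p = 0.772). These were 2 of 23 features separated upwards in CPM, beside 6.11% of all features tested. Separated downwards was 1 of the 23, beside 10.3% of all features. It was eif3f.S, at 194 ± 8.60 and 159 ± 21.6 CPM (log2 fold change -0.23, DESeq2 adjusted p = 0.802). Of the ribosome-linked genes that the naming rule left out, 4 features had an adjusted p. They were fau.L (0.061), fau.S (0.11), rpl7l1.L (0.11) and rpl22l1.L (0.23 in log2 fold change), and none was called. The paralog rpl3l, known in mammals from muscle, had 0 to 2 counts per library in either homeolog. It got no adjusted p, and its change cannot be read.

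Reads were assigned to the 116 members in very unequal numbers, from 7.89 to 1358 CPM in control MO with a median of 218, and 106 members were above 100 CPM. These values are not scaled by transcript length, so they are not ranks of expression between genes. The members with the most reads were rpl3.L, rpl4.L, rpl5.L, rpl10a.S, rpsa.S and rps2.L. Those with the fewest were rplp2.L, rps19.L and rps21.L, followed by 3 features at or under the floor. The features rps24.L and rpl37a.S had 0 counts in all 6 libraries, and rpl37.S had 0, 1 and 1 counts in either group. The floor of 3 counts corresponded to 0.125 to 0.260 CPM, so these 3 were not detectable at this depth. Reads that fit more than one place were not counted, and a low value can therefore also belong to a near-identical copy. The median SD of a member within control MO was 16.0% of its mean.

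No ribosomal protein pair passed the test for a changed balance between homeologs. The L to S ratio of normalized counts was tested with limma in the 55 pairs whose homeologs each averaged at least 10 counts, and it is free of differences in library size. Of 55 pairs, 0 passed an adjusted p below 0.1, against 0.426% of 7285 pairs in the whole annotation. At an unadjusted p under 0.05 there was 1 pair (rps4x), against 10.3% of all pairs. With the replicate block, 0 of 55 passed, against 2.81% of all pairs, and 2 (rps4x and rps13) had an unadjusted p under 0.05, against 18.8%. The median absolute change of the log2 ratio was 0.066 in members and 0.19 in all pairs. Most members were above 100 CPM, while all pairs reach down to a mean of 10 counts per homeolog. Read depth was not matched between these sets, and its part in the difference was not tested. Summed over pairs, L took 54.4% ± 0.158 of the reads in control MO and 53.9% ± 0.517 in neil2 MO (SD, n = 3).

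**Figure D5:**
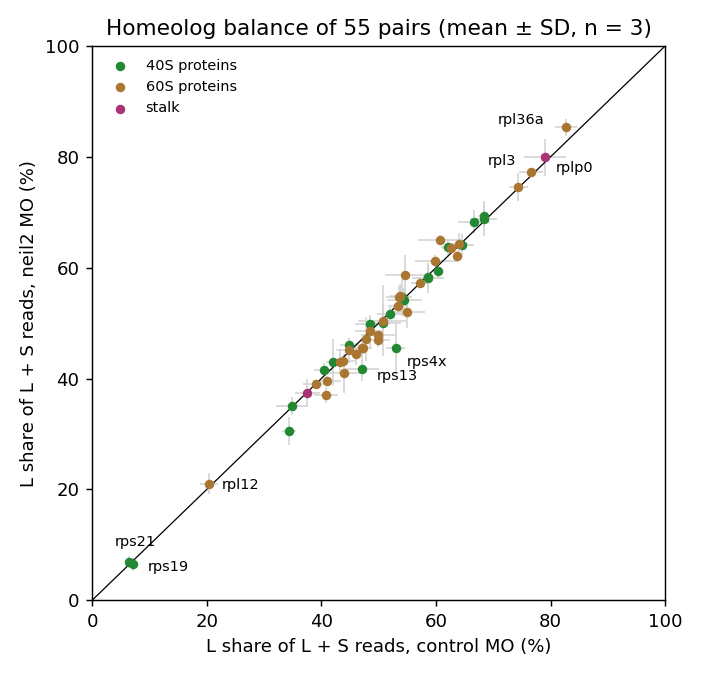
Share of L in the L + S reads of each of 55 ribosomal protein pairs in neil2 MO (%, y axis) against control MO (%, x axis), as means with SD (n = 3), coloured by subunit, with the line of equal shares. Pairs spread from 6.47% to 82.7% in control MO and lie near the line, with rps4x the farthest below it at 53.0% and 45.5%.

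The pair with the smallest p was rps4x. Its L share was 52.6%, 54.8% and 51.6% in control MO and 45.5%, 50.1% and 40.9% in neil2 MO. All neil2 MO libraries were below all control MO libraries, and the log2 ratio changed by -0.44 ± 0.17 (SE; limma adjusted p = 0.458, with the replicate block 0.163). The L share was likewise lower without overlap for rps13, rps15, rpl29, rpl4 and rpl15, and no pair was higher without overlap. How often this happens over all pairs was not computed. The log2 ratio change was below 0 in 28 of the 55 ribosomal protein pairs and above 0 in 27. For rps13, which binds near the contact of the subunits, the L share was 47.1% ± 2.98 and 41.7% ± 2.04 (log2 ratio change -0.32 ± 0.15, limma adjusted p = 0.534). The next pairs were rps15 (34.4% and 30.5%), rpl29 (40.8% and 37.0%) and rpl18 (60.7% and 65.0%), with limma adjusted p of 0.624, 0.639 and 0.669. Over the 55 pairs, the log2 fold changes of L and S were both above 0 in 39, both below 0 in 3 and of opposite sign in 13. Their Pearson correlation across pairs was 0.25, given as a description, since the pairs share libraries and size factors.

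In control MO the L share of the 55 pairs ran from 6.47% to 82.7% with a median of 51.9%, beside 55.6% in all 7285 pairs. L held more than 50% in 30 of 55 pairs (54.5%), beside 59.6% of all pairs. The homeologs were within 2-fold of each other in 46 of 55 pairs (83.6%), beside 51.9% of all pairs. The SD between control MO libraries was 2.10 percentage points in the median member pair and 3.17 in the median of all pairs. Here too the 2 sets were not matched for read depth.

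Several pairs leaned to S. For rps21 the L share was 6.47% ± 0.242 in control MO and 6.93% ± 1.09 in neil2 MO. For rps19, the gene first linked to Diamond-Blackfan anaemia, it was 7.20% ± 0.727 and 6.52% ± 1.18. For rpl12, whose protein sits at the base of the stalk, it was 20.4% ± 1.56 and 21.1% ± 1.94. After these came rps15 and rpsa, the latter at 34.8% and 35.0%. Each of these S-leaning pairs kept its lean in all 6 libraries. Others leaned to L. The share was 82.7% ± 1.99 in control MO and 85.3% ± 1.58 in neil2 MO for rpl36a. It was 79.0% ± 3.67 and 79.9% ± 3.31 for rplp0, 76.6% and 77.3% for rpl3, and 74.4% and 74.5% for rpl5. For rps6, whose protein is phosphorylated by S6 kinases, it was 68.3% and 69.3%. The 2 names left out of the ratio test, rpl37 and rpl37a, had nearly all their reads on L (rpl37.L at 157 ± 30.4 and rpl37a.L at 160 ± 30.0 CPM in control MO). Since reads that fit both homeologs were not counted, these shares describe the reads that told them apart.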

How the data were processed

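Whole-embryo polyadenylated RNA was sequenced from one end. The authors used STAR 2.5.4b for alignment (X. laevis genome v9.2) and deposited raw counts per feature from featureCounts 1.5.1 at default settings, without normalization. Reads that map to several places or overlap several genes are then not counted, and strand was not used, so near-identical or overlapping genes are uncertain. No genome of that build was used here, so sequences, coordinates and lengths are not given. CPM are counts per 1000000 counted reads of a library.

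All features with at least 1 count entered DESeq2 1.42.0 under R 4.3.3 (group as the only term, Wald test, Benjamini-Hochberg adjusted p below 0.1 and absolute log2 fold change above 0.5, as in the study). edgeR 4.0.16 (quasi-likelihood, TMM) was the alternative. Log2 L to S ratios of normalized counts plus 0.5 were fitted with limma 3.58.1. Intervals and floors cover counting error or pool spread only, and PCR duplicates were not marked. No 2 libraries agreed within sampling noise (chi-square per degree of freedom 13.2 to 36.1). Fits were tried on simulated data with log2 changes of 1.5 and no effect shared by replicate number. That setting cannot show how well changes as small as those of the members would be found.

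Groups and replicate numbers came from the titles, which do not say what a number shares. Deviations from group means correlated between same-numbered libraries (r = 0.58, 0.57 and 0.63 for replicates 1, 2 and 3 over 23779 features). Over the 116 members alone r was 0.67, 0.18 and 0.58, so the pairing was weak for the members in replicate 2. From the values over all features, the numbers were taken as pairs and a replicate block was fitted as an alternative.

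The members, the lists and the naming rule were chosen with earlier results of these data known. Named were members called with or without the block, the 8 largest changes each way, the 6 highest and 6 lowest in CPM, the 5 pairs with the smallest p or leaning most to L or S, the stalk genes, rpsa, rpl5, rpl11 and single copies. RefSeq names of v10.1 matched 104 of 119 members. Some members that this rule takes are not reported here by name.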

Additional observations from a re-analysis of the deposited data

How the results depend on the processing

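The count of raised members was 0 under all alternatives run. The count of lowered members, 0 in the main fit, was 1 (rpl10a.S each time) with a mean count of at least 10 (DESeq2 adjusted p = 0.0913), with the replicate block in DESeq2 and in edgeR, and with size factors from total counts, an alternative chosen after seeing the data (DESeq2 adjusted p = 0.0432). It was 0 to 1 when each library was left out in turn. It stayed 0 with edgeR, with TMM size factors, with size factors set without the members, without independent filtering, at an adjusted p below 0.05, without the effect size filter and with L and S summed. The median log2 fold change of the members was 0.035 to 0.097 under the other scalings and fits, and 0.025 to 0.21 when a library was left out. The difference in read share, 0.0208 percentage points, ranged from -0.129 to 0.270 when a library was left out and was 0.129 with TMM-scaled totals, so its sign is not fixed. The number of pairs with a changed ratio was 0 throughout. Of 532 values of named members and pairs recomputed, 526 kept their call and 6, all of rpl10a.S, gained one. The replicate block changed no other call among these named members and pairs. The alternative with CPM per kb of coding length was not run, since no lengths were used here. The 95% interval of the log2 fold change reached past 0.5 for 38 of 116 members without the block and for 4 with it.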

Other observations

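The genes beside the lowest members, in the gene order of the RefSeq v10.1 assembly, were read as a check of the surrounding chromosome. Near rpl10a.S, the log2 fold changes were 0.15 for snrpc.S, 0.15 for spdef.S and -0.022 for srpk1.S. Near rps4x.L, they were 0.083 for nhsl2.L, 0.12 for pin4.L and 0.15 for ercc6l.L. The nearest neighbours of rpl10a.S in the table had few reads, pacsin1.S (-0.30 ± 0.94, SE, mean count 6.17) and tulp1.S (-0.69 ± 1.24, mean count 3.17), and got no adjusted p, and bmp15.L and tnfsf10l.L near rps4x.L had mean counts of 0.167 and 53.2. None of these neighbours was called in DESeq2, with or without the replicate block.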
